A study of Mus musculus with 12 samples.

Results

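The comparison described here sets mouse embryonic stem (ES) cells that carry the N1300T change in Tet2 against ES cells whose genotype label names no change in Tet2. It takes in 9 of the 12 libraries of the series: 3 of genotype Tet1KO, and 6 of genotype Tet1KO Tet2 N1300T, which came as 3 numbered 49 and 3 numbered 81. Members were all genes that passed a filter on low counts, 16014 of the 35976 symbols in the table. The Tet1 knockout label is shared by every library, the 3 remaining ones (Tet1 Tet2 DKO, numbered 41, here DKO) included. The cells were V6.5, a male mouse line, kept on gelatin in serum medium with LIF and with the inhibitors CHIR99021 (of GSK3) and PD0325901 (of MEK), and no treatment was given. The meaning of the numbers 41, 49 and 81 and of the letters A, B and C is not stated, and a numbered set of 3 is called a preparation. Tet1KO is 1 preparation, so its genotype cannot be told apart from any other property of those cells. Nothing in the labels says that libraries of a group came from separate cultures, and p-values then measure only the spread between these libraries.

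TET enzymes oxidise the methyl group of 5-methylcytosine in DNA, and the oxidised bases can be lost at replication or cut out by the glycosylase Tdg, after which base excision repair restores cytosine. Thymine carries a methyl group at the same ring position, and its oxidised form, 5-hydroxymethyluracil, is a substrate of the glycosylases Smug1 and Tdg. By its title the study concerns TET2 with leukaemia-derived changes that oxidises thymine, and the RNA was sequenced to see what cells with N1300T express. The labels do not give the residue's role in the enzyme, and neither modified bases nor methylation were measured here.

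The 9 libraries held 31515011 to 53408950 counts, and levels are given in CPM, which are counts scaled by library size, with the libraries A, B and C of a preparation written in that order with slashes between them. Where 3 such sets follow each other they are those of Tet1KO, N1300T 49 and N1300T 81. Differences are log2 fold changes of N1300T over Tet1KO, with both preparations weighted equally, ± an approximate SE. This SE is the size of the change divided by the square root of edgeR's quasi-likelihood F. A gene was called where its adjusted p (Benjamini-Hochberg, over all tested genes) lay under 0.05. Every library had the profile of ES cells: Pou5f1 stood at 1230 to 1400 CPM, Nanog at 543 to 645 CPM and Sox2 at 381 to 490 CPM, and none of these pluripotency factors was called (named after their values were seen). The naive pluripotency list summed to 8355 to 8525 CPM in Tet1KO and 8285 to 8696 CPM in N1300T. Markers of primitive endoderm summed to 1083 to 1147 and 1044 to 1185 CPM, those of fibroblasts to 2148 to 2860 and 2111 to 3105 CPM, and those of the two-cell-like state to 243 to 303 and 244 to 314 CPM, lists that include genes ES cells also express. Blood specification genes summed to 177 to 211 and 164 to 216 CPM, neuroectoderm genes to 161 to 187 and 153 to 225 CPM. The trophoblast list summed to 333 to 402 CPM in Tet1KO and 243 to 288 CPM in N1300T. Of these sums the imprinted gene Peg10 alone made up 105 to 171 and 53.5 to 86.9 CPM, and the other 15 members 228 to 233 and 189 to 229 CPM. The mesendoderm list summed to 890 to 1066 and 615 to 802 CPM, of which the Nodal inhibitor Lefty2 alone made up 751 to 932 and 447 to 653 CPM. The other 16 mesendoderm members summed to 128 to 139 CPM in Tet1KO and 149 to 174 CPM in N1300T, higher where Lefty2 was lower. Of the listed markers, 12 of 20 for fibroblasts, 10 of 20 for neuroectoderm, 14 of 19 for blood and 3 of 18 for the two-cell-like state passed the filter. In bulk RNA fewer cells of a type and less RNA per cell cannot be told apart.

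The genes for the TET enzymes and for the repair of oxidised bases differed little. Tet1 mRNA stood at 174/131/153 CPM in Tet1KO, at 176/147/172 CPM in N1300T 49 and at 170/137/167 CPM in N1300T 81. Tet2 mRNA stood at 181/158/142 CPM in Tet1KO, 138/145/123 CPM in 49 and 156/140/130 CPM in 81. The ranges overlap for both genes, and neither was called. For Tet2 the difference was -0.21 ± 0.07, adjusted p 0.0591, and 3 of the 9 fits without 1 library called it lower. The labels cannot be checked from these sums, which would not show a changed codon or a short deletion. Tet3, the remaining TET gene, stood at 8.99/7.23/9.14 CPM in Tet1KO, 4.86/6.04/6.48 CPM in 49 and 5.65/4.92/6.44 CPM in 81. Its groups do not overlap, and it fell, with a log2 fold change of -0.56 ± 0.12, adjusted p 0.00385. Tdg stood at 30.8/34.6/30.6 CPM in Tet1KO, 31.9/33.5/32.8 CPM in 49 and 33.4/38/31.2 CPM in 81, and Smug1 at 21.8/21.8/22.8, 21.9/20.7/22.8 and 23.2/21.3/21.2 CPM. The differences were 0.07 ± 0.07 for Tdg and -0.02 ± 0.07 for Smug1, smaller than the spread between replicates. Of the 20 TET and repair genes tested, Gadd45a, a DNA damage response gene, rose (0.41 ± 0.09, adjusted p 0.00449), and Polb, the gap-filling polymerase of base excision repair, fell with Tet3 (-0.26 ± 0.08, adjusted p 0.0428). These 3 calls made up 15% of the list, beside 15.7% of all tested genes. Tet3 and Gadd45a lie on chromosome 6 and Polb on chromosome 8, which stand apart between the genotypes. Most calls on both chromosomes were lower, whereas Gadd45a was called higher. The part of the chromosomes in these 3 calls was not tested. The 13 members off chromosomes 6, 8 and 11 held none of the calls. Polb lost its call in fits without Tet1KO A or B, 49 B or C, or 81 A or C. The glycosylase genes Neil1 and Mbd4, named after their values were seen, stood at 11.2 to 14.5 and 29.8 to 34.2 CPM in Tet1KO and 10.7 to 12 and 28 to 30.9 CPM in N1300T, and neither was called. Among the 20 genes of the DNA methylation machinery, Dnmt3a and Uhrf1 fell: Uhrf1, which brings the maintenance methyltransferase to replicated DNA, went from 872/842/779 CPM to 656/716/706 and 741/742/704 CPM. The third lower member, Zbtb38, was not singled out by the naming rule. In this list 3 members were called lower and 1 higher, or 20%, a share near the 15.7% of all tested genes. Without Tet1KO A, 2 were lower. Ehmt2, a histone H3K9 methyltransferase, was called higher at 0.18 ± 0.06, adjusted p 0.0306, with overlapping libraries, and not without Tet1KO A or C, 49 B or C, or 81 B. Dnmt1 and Dnmt3b, named after their values were seen, were not called (-0.13 ± 0.06 and 0.19 ± 0.10).

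Across all tested genes, 15.7% were called, 7.69% higher and 8.04% lower in N1300T. Most differences were small: the median size among called genes was 0.43 on the log2 scale, and 1603 of the 2520 called genes (63.6%) differed by under 1.5-fold. The 3 Tet1KO and 6 N1300T libraries did not overlap for 1923 of the called genes (76.3%), beside 16% of all tested genes. Both preparations deviated from Tet1KO in the same direction for 2512 called genes, and in opposite directions for 8. Called genes fell to 1388 in a fit without Tet1KO A, the library on which the counts depended most.

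The 12 leading rises included the transcription factor genes Tbx5, Tbx15, Hand1 and Wt1, all near background in Tet1KO. Tbx5, a T-box factor of heart and forelimb, had 5 counts in the 3 Tet1KO libraries together, 97 in N1300T 49 and 181 in N1300T 81. That is 0.794/0.866/0.822 CPM in 49 and 1.3/1.45/0.835 CPM in 81. Tbx15, another T-box factor, stood at 0.248/0.0957/0.19 CPM in Tet1KO, 3.05/3.44/3.35 CPM in 49 and 3.87/2.74/3.65 CPM in 81 (4.25 ± 0.25, adjusted p 6.79e-09). All 6 mutant libraries thus exceeded the highest Tet1KO library over 10-fold. Hand1, a basic helix-loop-helix factor of trophoblast and mesoderm, went from 0.248/0.431/0.285 CPM to 1.63/1.3/1.27 and 1.54/1.92/1.23 CPM. Wt1, a zinc-finger factor of kidney and gonad, went from 0.372/0.837/0.831 CPM to 3.32/3.09/3.35 and 3.28/2.57/2.81 CPM. These levels stayed within a few CPM. The Tet1KO libraries lay below every mutant library for each of these genes, which the choice of leading rises required. Dkk3, a secreted protein of the Dickkopf family, stood at 2.36/2.82/2.73 CPM in Tet1KO, 9.67/9.67/8.67 CPM in 49 and 11.3/9.54/8.64 CPM in 81 (1.85 ± 0.12, adjusted p 1.35e-08).

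Enpp2, Pde4b, Comp, Col16a1, Alox12e and Dpysl4 were also among the leading rises. Enpp2, which encodes the lysophosphatidic acid enzyme autotaxin, went from 0.124/0.191/0.38 CPM to 2.2/1.62/2.09 CPM in 49 and 1.74/1.41/2.04 CPM in 81. Pde4b, a cAMP phosphodiesterase, went from 0.248/0.191/0.0949 to 1.45/1.87/1.36 and 1.3/0.864/1.14 CPM. Comp, a cartilage matrix protein, went from 1.09/0.431/0.973 to 2.97/3.52/3.95 and 5.15/3.57/4.02 CPM. Both preparations thus moved by like amounts. Col16a1, a fibril-associated collagen, rose by 2.15 ± 0.30, adjusted p 8.44e-05, and Alox12e, a lipoxygenase gene, by 1.86 ± 0.30, adjusted p 0.000416. Dpysl4, of the collapsin response mediator family, stood at 0.961/0.766/1.33 CPM in Tet1KO and 3.73/5.17/4.37 and 3.42/4.13/4.4 CPM in N1300T. Lef1, a nuclear effector of Wnt signalling that was among the smallest adjusted p, stood at 14/18.7/16.4 CPM in Tet1KO, 39.8/39.5/51.2 CPM in 49 and 57.6/53.2/50.5 CPM in 81. The 12 leading rises and Lef1 stayed called in each fit without 1 library.

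**Figure D1:**
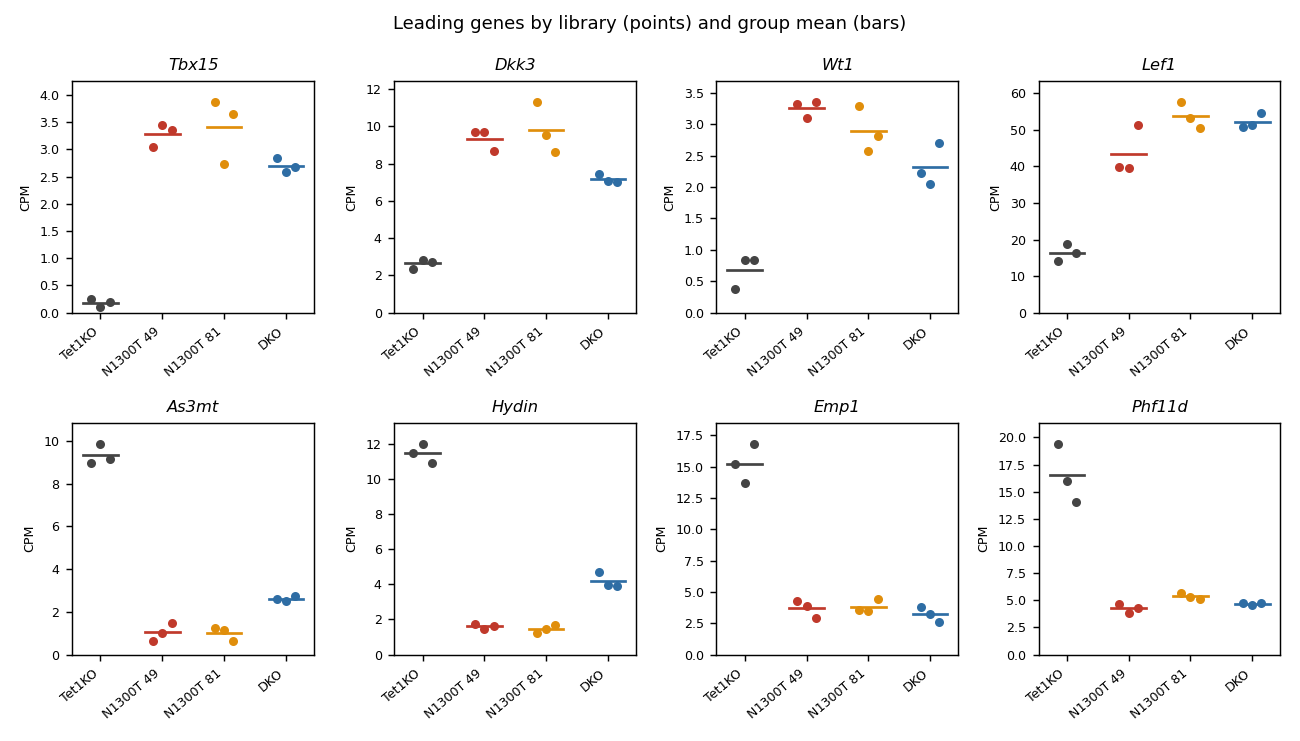
CPM of 4 genes that rose (Tbx15, Dkk3, Wt1, Lef1) and 4 that fell (As3mt, Hydin, Emp1, Phf11d) in N1300T against Tet1KO, one panel per gene with a linear axis from 0. Points are libraries A, B and C from left to right and bars are group means, with DKO for reference. In each panel the 6 N1300T libraries lie on 1 side of the 3 Tet1KO libraries. The choice of leading rises and falls required this. Lef1, Emp1 and Phf11d were chosen by their small adjusted p in the same comparison, which favours it too.

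Genes that fell included several that were all but lost from the mutant cells. Zfp263, a zinc-finger factor gene, stood at 11.7/5.05/4.58 CPM in Tet1KO, so that Tet1KO A was over 2-fold above B and C. It had 0 counts in all 3 libraries of N1300T 49 and 4 counts in those of 81. Against a floor of 3 counts over the group, 49 was at least 265-fold lower. Zfp560, a further zinc-finger gene, stood at 1.05/0.79/1.33 CPM in Tet1KO, 0.0407/0.0542/0.0316 CPM in 49 and 0.276/0.244/0 CPM in 81. As3mt, which methylates arsenite, stood at 8.99/9.86/9.18 CPM in Tet1KO, 0.651/1.03/1.46 CPM in 49 and 1.22/1.16/0.615 CPM in 81 (-3.21 ± 0.18, adjusted p 4.59e-09). Slc15a2, a peptide transporter, went from 4.74/5.36/3.56 CPM to 0.366/0.487/0.728 and 0.809/0.789/0.352 CPM. Each of these genes separates the 2 genotypes in all 9 libraries, which the choice of leading falls required. Hydin, a protein of motile cilia, fell (log2 fold change -2.91 ± 0.12, adjusted p 3.46e-11), from 11.5/12/10.9 CPM to 1.73/1.44/1.64 CPM in 49 and 1.24/1.43/1.69 CPM in 81.

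Card6, Sh3bgrl, Hnf4a, Slc38a5, Serpina3m and Ufsp2 were also among the leading falls. Card6, which carries a caspase recruitment domain, fell (log2 fold change -2.92 ± 0.19, adjusted p 1.71e-08), and Sh3bgrl, an X-linked gene for a small SH3-binding-domain protein, did too (-2.76 ± 0.27, adjusted p 2.25e-06). Hnf4a, a nuclear receptor of liver and visceral endoderm, stood at 1.55/0.981/1.45 CPM in Tet1KO against 0.0407/0.0542/0.253 CPM in 49 and 0.079/0.188/0.352 CPM in 81. Slc38a5, an amino acid transporter, stood at 2.29/1.46/1.12 against 0.122/0.217/0.127 and 0.178/0.0751/0.264 CPM, and Serpina3m at 1.18/1.63/1.33 against 0.387/0.0542/0.221 and 0.138/0.0751/0.176 CPM. All of these were weakly expressed in Tet1KO as well. Ufsp2, a protease of the UFM1 modifier, stood at 9.18/3.47/3.25 CPM in Tet1KO, with A again over 2-fold above B and C, and at 0.753/0.975/0.822 and 0.671/0.225/0.396 CPM in N1300T. Among the genes with the smallest adjusted p that fell were Ildr1, a tricellular junction protein (35.5/37.3/36.1 CPM in Tet1KO, 13.3/12.6/12.9 CPM in 49, 9.42/10.9/8.37 CPM in 81), and the membrane protein gene Emp1 (15.2/13.7/16.8, 4.25/3.9/2.91 and 3.53/3.44/4.42 CPM). Phf11d, of an interferon-inducible PHD finger family, stood at 19.4/16/14.1 CPM in Tet1KO, 4.68/3.85/4.27 CPM in 49 and 5.67/5.33/5.12 CPM in 81. The predicted gene Gm21283 fell from 5.67/5.69/8.73 CPM to 0.285/0.244/0.348 and 0.237/0.357/0.308 CPM. It lies within the bounds of Hydin on chromosome 8, so these falls are not of separate loci. Whether both entries share reads was not tested. The 12 leading falls stayed called in each fit without 1 library.

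Because TET enzymes act on CpG dinucleotides, promoter windows are shown for a pair of genes that rose and a pair that fell, chosen to span many and few CpG. Each window runs from 250 bases before to 50 bases after the 1 start listed for the gene in a promoter table from RefSeq (GRCm38.p6), 5′ to 3′ on the gene's strand, with CG in capitals. The listed start of Zfp263 is the outer end of the gene in RefSeq, while those of Col16a1, Alox12e and As3mt lie 23, 190 and 301 bases inside it, so that the As3mt window is wholly within the gene's bounds.
Zfp263 (fell; chr16:3743849-3744148, + strand, 20 CpG): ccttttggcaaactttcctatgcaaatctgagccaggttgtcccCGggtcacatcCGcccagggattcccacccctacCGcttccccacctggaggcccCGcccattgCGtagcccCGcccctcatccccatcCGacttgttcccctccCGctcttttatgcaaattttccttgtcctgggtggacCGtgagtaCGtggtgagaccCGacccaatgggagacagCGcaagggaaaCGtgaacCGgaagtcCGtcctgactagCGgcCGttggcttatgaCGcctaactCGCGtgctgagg
As3mt (fell; chr19:46707208-46707507, + strand, 9 CpG): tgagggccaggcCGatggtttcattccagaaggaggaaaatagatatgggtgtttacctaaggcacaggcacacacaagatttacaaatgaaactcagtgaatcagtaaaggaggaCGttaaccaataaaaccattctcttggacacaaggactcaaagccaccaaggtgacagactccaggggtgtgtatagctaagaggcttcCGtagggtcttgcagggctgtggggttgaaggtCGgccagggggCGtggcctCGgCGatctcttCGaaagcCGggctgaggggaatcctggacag
Col16a1 (rose; chr4:130047590-130047889, + strand, 24 CpG): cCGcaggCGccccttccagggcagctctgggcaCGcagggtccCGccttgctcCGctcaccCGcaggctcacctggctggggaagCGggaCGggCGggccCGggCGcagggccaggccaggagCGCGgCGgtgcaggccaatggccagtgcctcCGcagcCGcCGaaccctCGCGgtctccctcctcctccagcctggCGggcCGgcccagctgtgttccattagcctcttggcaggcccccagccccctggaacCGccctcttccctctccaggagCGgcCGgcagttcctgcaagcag
Alox12e (rose; chr11:70322481-70322780, - strand, 3 CpG): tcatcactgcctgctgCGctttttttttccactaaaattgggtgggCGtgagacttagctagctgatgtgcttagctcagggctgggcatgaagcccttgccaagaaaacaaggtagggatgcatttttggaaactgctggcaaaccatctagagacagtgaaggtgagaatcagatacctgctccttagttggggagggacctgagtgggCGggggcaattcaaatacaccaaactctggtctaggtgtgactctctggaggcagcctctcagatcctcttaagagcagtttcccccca
Since the 4 windows were chosen by their CpG counts, the comparison rests on all genes. CG was the motif counted, which reads the same on both strands, in the 9364 tested genes with 1 listed start. The median was 12 CpG for 117 genes called over 2-fold higher, 9 for 138 genes called over 2-fold lower, 22 for 1168 genes called under 2-fold and 20 for 7941 genes that were not called. Windows with no more than 5 CpG made up 30.8%, 26.8%, 7.53% and 11.6% of these classes. Level goes with this: among genes under 5 CPM, the median was 12 CpG for those not called, 12 for those over 2-fold higher and 9 for those over 2-fold lower. At 5 CPM or more, the 22 genes over 2-fold lower had a median of 10 CpG and the 8 over 2-fold higher a median of 9.5, beside 22 for those not called.

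Genes on the Y chromosome set the mutant preparations apart both from Tet1KO and from each other. Eif2s3y, which encodes a subunit of a translation initiation factor, stood at 66.2/67.9/60.9 CPM in Tet1KO, 0.57/0.704/0.917 CPM in 49 and 0.079/0.15/0.22 CPM in 81. It was near 0 in both preparations, at 83 and 22 counts over 3 libraries each. Ddx3y, an RNA helicase, stood at 46.8/53/63.2 CPM in Tet1KO and 47.1/45.8/50.5 CPM in 49, and had 8 counts over the 3 libraries of 81. Uty, a demethylase-family gene, stood at 28.7/25.6/28.3 CPM in Tet1KO and 32.6/26.8/25 CPM in 49, with 6 counts in 81. The weakly expressed Uba1y, named after its values were seen, stood at 1.86/1.84/2.14, 1.65/1.54/1.49 and 0.336/0.244/0.242 CPM. Thus 49 held Ddx3y and Uty at about the Tet1KO level while Eif2s3y was nearly absent, and 81 was near 0 for all 3. The pooled differences called for Ddx3y and Uty therefore come from 81. DNA was not measured, and whether the cells still carry these Y sequences was not tested.

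**Figure D2:**
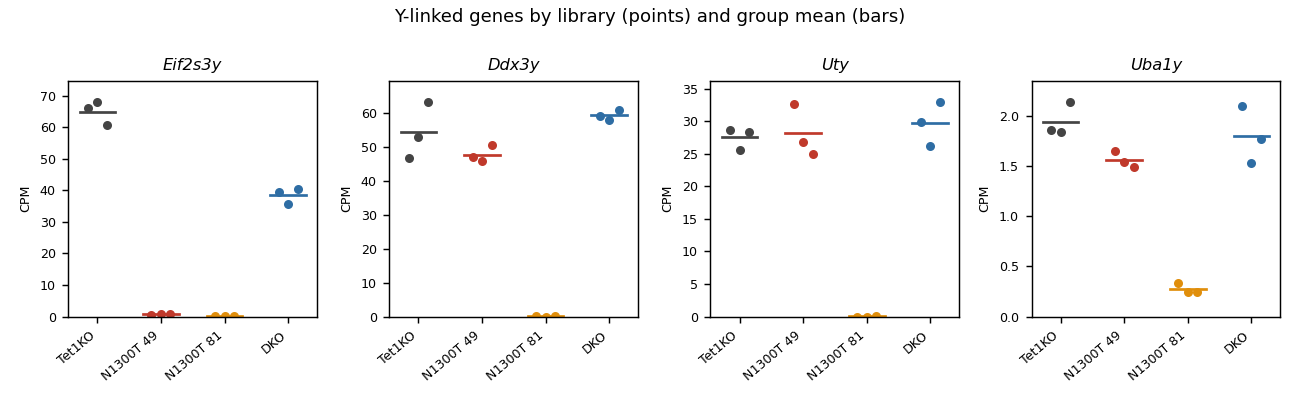
CPM of 4 Y-linked genes in the libraries of Tet1KO, N1300T 49, N1300T 81 and DKO, on linear axes from 0, with group means as bars. Eif2s3y is near 0 in both N1300T preparations, and Ddx3y and Uty are near 0 in N1300T 81 alone.

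Between the preparations themselves 0.362% of tested genes were called, 58 in all. Fmr1nb, an X-linked neighbour of Fmr1, stood at 19.3/23.1/27.5 CPM in Tet1KO, 34.2/29.6/36.3 CPM in 49 and 0.375/0.338/0.989 CPM in 81. It was thus higher in 49 and nearly lost in 81. Grb10, an imprinted adaptor of growth factor receptors, stood at 52.7/51.2/69.2 CPM in Tet1KO, 80.8/76.8/97.4 CPM in 49 and 44.2/36.7/50 CPM in 81, and the predicted gene Gm32885 at 9.46/10.1/9.85, 1.85/1.19/1.99 and 12.6/13.5/13.5 CPM. These were the genes called in opposite directions in 49 and in 81 against Tet1KO. Gata4, a primitive endoderm factor, stood at 1.52/1.32/0.878 CPM in Tet1KO and was higher in 49 (4.74/5.66/5.31 CPM) than in 81 (2.21/2.29/1.65 CPM), with a log2 difference of 1.34 ± 0.18, adjusted p 0.00107 between them.

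Calls were unevenly spread over the chromosomes. On chromosome 6, 192 of 724 tested genes were called (26.5%), 165 of them lower, and on chromosome 8 201 of 824 (24.4%), 165 lower. On chromosome 11, 229 of 1327 were called (17.3%), 170 of them higher. Median log2 fold changes over all tested genes were -0.141, -0.114 and 0.095 on these chromosomes, beside 0.0021 over the genome, and lay between -0.026 and 0.046 on the other autosomes and X. Together the 3 chromosomes gave 622 calls in 2875 genes (21.6%), and the others gave 1869 in 12723 (14.7%). Tet1KO A stood out: its median deviation from the 9-library mean, over genes of at least 10 CPM, was 0.17 on chromosome 6, 0.12 on chromosome 8 and -0.10 on chromosome 11. Tet1KO B and C deviated the same way by 0.051 and 0.054, 0.050 and 0.036, and -0.023 and -0.042. The 6 mutant libraries lay between -0.063 and -0.030 on chromosome 6, between -0.045 and -0.018 on chromosome 8 and between 0.012 and 0.039 on chromosome 11. All 3 Tet1KO libraries thus lay apart from all 6 mutant libraries on each of these chromosomes. Without Tet1KO A, 75 genes were called lower and 19 higher on chromosome 6, 74 and 25 on chromosome 8, and 36 and 91 on chromosome 11, and the medians were -0.107, -0.079 and 0.071. Copy number was not measured, and its part in these differences was not tested.

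**Figure D3:**
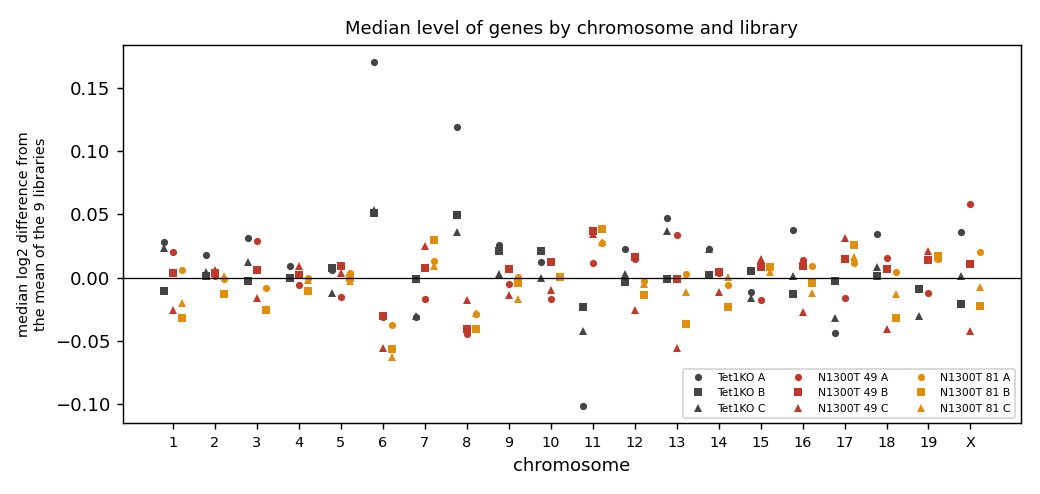
Median over genes of at least 10 CPM of the log2 difference from the mean of the 9 libraries (y axis), by chromosome (x axis), with colour for the group and symbol for library A, B or C. Chromosomes 6 and 8 are high and chromosome 11 is low in the 3 Tet1KO libraries, most of all in Tet1KO A.

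The gene lists were read against the shares of all tested genes called higher (7.69%) and lower (8.04%). Among pluripotency genes, the naive list had 1 of 20 called, Sall4, a zinc-finger factor of the network (0.19 ± 0.06, adjusted p 0.0447), and it lost the call in 7 of the 9 fits without 1 library. Its higher count was 3 without Tet1KO B and 0 without Tet1KO A, 49 B or C, or 81 A or C, and 1 member was called lower without Tet1KO C or 49 B. The formative and primed list, genes of the state that follows, had 8 of 20 higher and 2 lower, with a median log2 fold change of 0.24. Sall2, a relative of Sall4, stood at 24.5/27.2/27.3 CPM in Tet1KO, 43.1/46/49.9 CPM in 49 and 49.6/43.4/47.6 CPM in 81. Cldn6, a tight junction claudin, stood at 27.2/28.6/26.4, 46/45/46.8 and 51.3/58/42.7 CPM. Sox3, an early neural Sox factor, stood at 4.65/6.01/7.64, 13/11.3/15.4 and 13.8/12.5/16.2 CPM and rose by 1.16 ± 0.15, adjusted p 3.61e-05. Foxd3, a forkhead factor of pluripotent and neural crest cells, stood at 26.9/32.4/30.6, 44/40.6/44.1 and 45/37.8/46 CPM. For all 4, every mutant library exceeded every Tet1KO library. The other higher members were Lef1, Zic2, Zic5 and Pim2, and the lower members were Dnmt3a and Ncam1, 1 lower without Tet1KO C.

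Of the signalling lists, Wnt targets and the Notch pathway had calls in the upward direction alone. For Wnt targets 8 of 20 were higher (median 0.36), namely Lef1, Tnfrsf19, Notum, Cdx2, Axin2, Sp8, Rnf43 and T, and 5 of the 14 members off chromosomes 6, 8 and 11 were. Notum, which releases lipid from Wnt proteins and so inhibits them, stood at 94.3/136/95.9 CPM in Tet1KO, 196/230/200 CPM in 49 and 225/252/211 CPM in 81. Axin2, a feedback inhibitor, stood at 125/146/150, 164/184/202 and 216/192/226 CPM, and T, or Brachyury, a mesoderm factor, at 11.5/10.6/16.5, 21/18.7/27.2 and 22.4/15.3/29.5 CPM (both named after their values were seen). The groups do not overlap for Notum and Axin2 and do for T (0.79 ± 0.17, adjusted p 0.00498). The count was 8 to 9 in the fits without 1 library. CHIR99021, an activator of Wnt signalling, was in the medium of every group. For the Notch pathway 6 of 19 were higher (median 0.20): the ligand genes Jag1, Jag2 and Dll1, the receptor gene Notch4, the coactivator gene Maml1 and the fringe gene Rfng. Jag1 stood at 39.3/48.3/42.7 CPM in Tet1KO, 56.3/66.7/64.4 CPM in 49 and 64.7/61/65.1 CPM in 81, and Jag2 at 15/17.5/20.3, 23.7/25.2/36.5 and 26.2/28.8/36.8 CPM, with no overlap for either. The count was 5 to 7 in the fits without 1 library, and 1 member was also called lower without Tet1KO B.

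Retinoid, ERK, LIF and BMP lists had calls in both directions or downward. In the retinoid list 3 of 16 were higher and 2 lower, Stra8 and Rdh11, with 5 higher without Tet1KO B, none lower without Tet1KO A, and 1 lower without Tet1KO B or C, 49 B or 81 A. Crabp2, which carries retinoic acid to its receptor, stood at 2.91/2.11/2.92 CPM in Tet1KO, 10.5/9.15/7.91 CPM in 49 and 8.19/8.4/8.2 CPM in 81 (1.73 ± 0.13, adjusted p 1.68e-07). Rarg, a retinoic acid receptor, stood at 98/101/96.6, 114/111/118 and 118/111/117 CPM. These changes ran from over 3-fold for Crabp2 down to under 1.5-fold for Rarg. Of ERK pathway targets 5 of 18 were lower (median -0.043): Myc, Spry4, Dusp6, Junb and Dusp4, with 3 in 49 singly or without Tet1KO C, and 1 or 2 were called higher in 6 of the 9 fits without 1 library. Spry4, a feedback inhibitor of receptor signalling, stood at 96.7/78.2/83.9, 58.5/49.3/59 and 54/41.2/69.3 CPM, and Dusp6, a phosphatase of ERK, at 49.2/40.3/42.1, 35.9/27.9/36.3 and 29.6/21.3/31.1 CPM. Across dual-specificity phosphatases, 6 of 21 were lower. LIF and STAT3 targets had 5 of 19 lower and 1 higher (3 higher without Tet1KO C and 2 without 81 B), with Socs2, a cytokine feedback inhibitor, at 83.7/87.2/82.3, 76/70.7/65.3 and 63.6/61.1/67.4 CPM. In BMP, Nodal and TGF-beta signalling 2 of 37 were higher and 5 lower. Bmp4, a ligand, stood at 42/39.9/34.6, 26.2/28.2/25.4 and 26.1/23.6/25.5 CPM and Lefty2, a Nodal inhibitor, at 880/932/751, 610/637/494 and 629/653/447 CPM. The higher count of that list was 0 without Tet1KO A or 49 C and 1 without 49 B, 81 A or 81 B, and 3 were lower without Tet1KO A or 49 A.

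**Figure D4:**
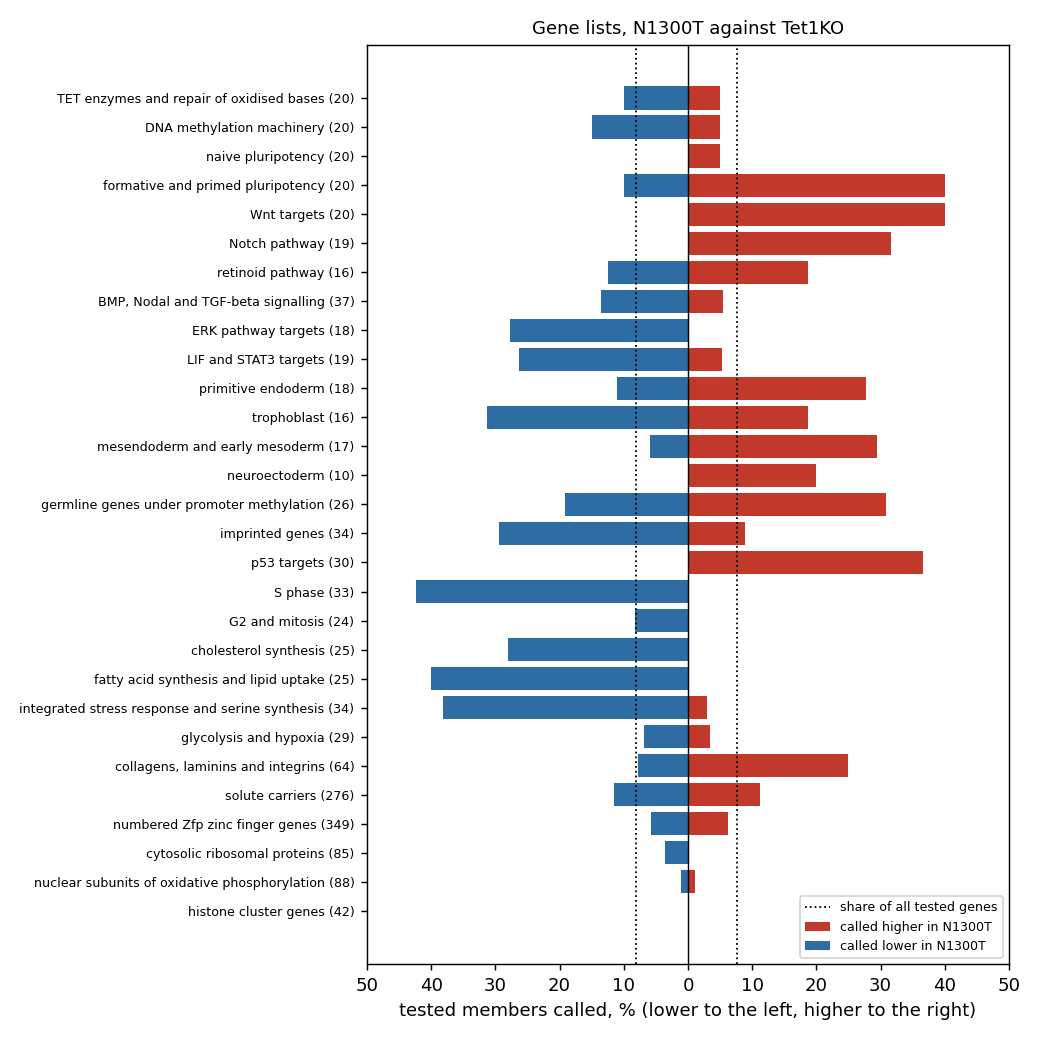
Share of tested members called higher (right, red) or lower (left, blue) in N1300T against Tet1KO, for a selection of the 50 gene lists. The number tested is in brackets. Dotted lines mark the shares of all tested genes, 7.69% higher and 8.04% lower, which Wnt targets exceed on the right and cholesterol synthesis on the left.

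Lineage lists moved in both directions. The trophoblast list had 3 of 16 higher, the factors Hand1, Cdx2 and Esx1, and 5 lower, Peg10, Tead4, Gata2, Krt7 and Ets2 (median -0.157). Cdx2, a factor of trophoblast and posterior mesoderm, stood at 1.86/1.39/3.01 CPM in Tet1KO, 6.31/5.25/7.81 CPM in 49 and 6.83/6.14/7.78 CPM in 81. Esx1, a placental homeobox gene named after its values were seen, stood at 0.868/1/1.09, 2.5/3.06/2.53 and 2.37/2.97/1.82 CPM. Peg10, an imprinted retrotransposon-derived gene needed for the placenta, stood at 155/105/171, 54.4/53.9/86.9 and 63.1/53.5/74.8 CPM. The called members thus split in direction, with transcription factors on both sides, and off chromosomes 6, 8 and 11 the counts were 2 and 2 of 11. Mesendoderm had 5 of 17 higher (Tbx15, Hand1, Evx1, T and Gsc) and Lefty2 lower. Primitive endoderm had 5 of 18 higher and 2 lower, but 2 higher without Tet1KO A or Tet1KO C. In that list Gata4 and Hnf4a went in opposite directions, and Amn, a co-receptor of visceral endoderm, rose (1.34 ± 0.23, adjusted p 0.000714). Blood specification had Cebpa and Tal1 of 14 higher and Gata2 lower. Tal1 kept its call in only 3 of the 9 fits without 1 library, and Gata2 lies on chromosome 6. Cebpa, a myeloid factor, stood at 1.36/0.742/1.09 CPM in Tet1KO, 2.52/3.11/2.56 CPM in 49 and 1.99/2.4/2.77 CPM in 81, and Gata2, a stem cell factor of blood, at 4.28/5.84/4.98, 2.5/3.09/2.34 and 3.02/3.7/2.88 CPM. Fibroblast markers had 3 of 12 higher, Fbln2 (0.96 ± 0.12, adjusted p 2.42e-05), Twist1 and Col5a1, and Pdgfrb lower. Neuroectoderm had Nes and Pax6 of 10 higher. Pax6 was near background, at 0.124/0.0479/0.237 CPM in Tet1KO and 0.237/0.188/0.528 CPM in 81, with overlap. It kept its call in 7 of the 9 fits without 1 library and was not called in 81 singly. Counts of 3 or fewer in the retinoid, blood, fibroblast and neuroectoderm lists changed by at most 2 when 1 library was left out. The part of other cell types in these results was not tested.

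Hox, T-box and Sox genes had called members in the upward direction alone. T-box factors had 4 of 12 higher: Tbx15, Tbx5, T and Tbx4, a hindlimb factor (1.66 ± 0.29, adjusted p 0.00078). Sox factors had 3 of 15 higher, Sox3, Sox12 and the neural crest factor Sox10 (1.23 ± 0.28, adjusted p 0.00621), with 5 higher without Tet1KO B and 1 lower without Tet1KO B, 49 C or 81 C. Of 39 listed Hox genes, 9 were tested and 4 were higher, or 2 without Tet1KO A. Hoxd4, 1 of these, stayed under 0.4 CPM in every library. Hoxd4 (0.062/0/0 CPM in Tet1KO) and Tbx5 (5 counts over the Tet1KO libraries) passed the filter only through groups where they were higher. A call lower was not possible for such genes, so the shared direction is in part set by the filter. Forkhead factors had 2 of 28 higher and 4 lower, and in the fits without 1 library these counts ran from 1 to 3 and from 0 to 4.

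Germline genes whose promoters are methylated in somatic cells moved both ways. Of 26 tested, 8 were higher (Meioc, Hormad1, Tdrd1, Tex15, Ddx4, Brdt and Sycp3 among them, or 5 off chromosomes 6, 8 and 11) and 5 lower (Syce1, Hsf2bp, Fkbp6, Tex11 and Rpl10l, or 3 without Tet1KO A). Meioc, a meiotic RNA regulator, stood at 8.59/7.94/10.8 CPM in Tet1KO, 19.7/17.2/18.9 CPM in 49 and 17.3/16.5/17.1 CPM in 81. Syce1, a protein of the synaptonemal complex, stood at 4.03/2.97/3.68, 1.71/1.57/2.44 and 1.15/0.977/1.12 CPM. Neither overlaps between genotypes. In the list of oocyte maternal genes 2 of 11 were lower: Khdc3, of the subcortical maternal complex, at 25.4/32.3/19.5, 7.84/9.8/4.75 and 7.25/8.04/4.46 CPM, and Nlrp4f at 4/3.83/6.74, 1.28/0.948/1.77 and 1.28/0.995/2.15 CPM. Zp3, a zona pellucida protein, rose (0.53 ± 0.10, adjusted p 0.00155).

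Of the imprinted genes 10 of 34 were lower and 3 higher (5 higher without Tet1KO C or 49 A), with a median of -0.121, and 6 of 27 were lower off chromosomes 6, 8 and 11. Igf2, a fetal growth factor, stood at 8.71/5.5/8.92 CPM in Tet1KO, 2.38/2.6/1.93 CPM in 49 and 1.42/1.88/1.76 CPM in 81 (-1.96 ± 0.16, adjusted p 2.43e-07). Phlda2, which restrains placental growth, stood at 23.6/23/21.5, 10.4/9.94/12.4 and 11.5/11.3/13.5 CPM, and Plagl1, a zinc-finger growth regulator, at 97.5/101/123, 52.7/46.5/60.2 and 59/48.4/64.8 CPM. All 3 stood lower in every mutant library than in any Tet1KO library. The other lower members were Sfmbt2, Peg10, Slc38a4, Zrsr1, Sgce, Impact and Mest. Meg3 and Rian, noncoding RNAs of the Dlk1-Dio3 region, and Peg3 were higher. Meg3, named after its values were seen, stood at 134/165/150 CPM in Tet1KO, 203/224/256 CPM in 49 and 188/208/228 CPM in 81. Zdbf2, an imprinted gene outside the list that was among the smallest adjusted p, stood at 208/186/208 CPM in Tet1KO against 107/106/93.5 and 108/96.4/108 CPM (-0.96 ± 0.06, adjusted p 8.44e-09).

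Both cell cycle inhibitor genes of the Ink4 locus, Cdkn2a and Cdkn2b, rose, and the cyclin genes Ccnd3 and Ccne1 fell. Cdkn2a, which encodes p16 and Arf, stood at 7.01/6.01/7.4 CPM in Tet1KO, 21.7/19.8/23.4 CPM in 49 and between 16.9 and 19.8 CPM in 81. Cdkn2b, the neighbouring p15 gene, named after its values were seen, stood at 1.74/1.41/2.09, 3.26/3.66/4.9 and 3.36/2.76/3.5 CPM. Ccnd3, a D-type cyclin, stood at 198/190/195, 130/131/139 and 141/131/139 CPM, and Ccne1, a cyclin of S phase entry, at 163/138/153, 120/109/114 and 121/105/118 CPM. None of these 4 overlaps between genotypes, and they were the called members among 16 cyclins and CDK inhibitors, with 4 higher in place of 2 without Tet1KO C. Of S phase genes 14 of 33 were lower (median -0.155), 6 of them Mcm helicase genes or the clamp gene Pcna, but 5 without Tet1KO A, and 1 was higher without Tet1KO B. Pcna stood at 467/401/424 CPM in Tet1KO, 387/349/350 CPM in 49 and 335/344/363 CPM in 81. Targets of p53 had 11 of 30 higher (median 0.17), of which 4 were left without Tet1KO A and 6 without Tet1KO B (with 1 lower there and without 49 C or 81 C), and 4 were higher in 81 against 13 in 49 when each preparation was tested singly. Bbc3, which encodes the pro-apoptotic protein Puma, stood at 21.4/23.3/24.3, 31/30.8/35.5 and 32/29.4/35.2 CPM. G2 and mitosis genes had 2 of 24 lower, a share near that of all genes, with 0 lower without Tet1KO A and 4 without Tet1KO C. Histone cluster genes had no call in 42, beside 1 without Tet1KO C.

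In lists of lipid, amino acid and redox metabolism a minority of members was called, and most of these were lower. Cholesterol synthesis had 7 of 25 lower and none higher (median -0.127), with 6 to 9 in the fits without 1 library. Ebp, a sterol isomerase, stood at 70/65.5/74.2 CPM in Tet1KO, 49.6/42.2/53.2 CPM in 49 and 49.4/47.5/58.2 CPM in 81. Fatty acid synthesis and lipid uptake had 10 of 25 lower, 5 without Tet1KO A, and 1 higher in the fits without Tet1KO B or 49 A alone. Me1, the malic enzyme that supplies NADPH, stood at 29.9/26.2/28.1, 15.6/17.3/17.6 and 15/16.8/16.2 CPM, and Lpl, lipoprotein lipase, at 11.6/9.38/14.9, 8.28/6.55/8.76 and 7.3/6.87/7.61 CPM. The groups do not overlap for these 3 genes. The integrated stress response and serine synthesis list had 13 of 34 lower and 1 higher, but 5 lower without Tet1KO A, 8 without Tet1KO B and 6 in N1300T 81 singly. Phgdh, the first enzyme of serine synthesis, stood at 172/155/148, 110/108/113 and 127/133/114 CPM. The antioxidant and metal list had 6 of 23 lower and 2 higher, with 11 lower without 81 C. Nfe2l2, or Nrf2, the factor of antioxidant genes, stood at 103/95.2/98.5, 76.1/75.7/76.5 and 86.9/82/82.6 CPM, and Hmox1, haem oxygenase, at 130/96.9/115, 84.9/77.1/81.5 and 95.1/90.6/89.2 CPM. Glycolysis had 1 of 29 higher and 2 lower, with 0 lower without Tet1KO A or B, 1 without 81 A or C, 5 without Tet1KO C and 6 without 81 B. In it Pfkp, the platelet phosphofructokinase, varied most within groups, at 192/221/84 CPM in Tet1KO, 48.3/75.5/38.5 CPM in 49 and 85.2/141/36.3 CPM in 81, with overlap. Pfkp lost its call without Tet1KO A or B.

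Few energy and protein synthesis genes were called, beside 15.7% of all genes: nuclear subunits of oxidative phosphorylation in 2 of 88 (2.27%), cytosolic ribosomal proteins in 3 of 85 (3.53%) and genes encoded by the mitochondrion in 0 of 13, with 5 lower without 49 A and a median of -0.191. No test of these shares against the rest was made. The 3 called ribosomal genes were the variants Rpl39l, Rps4l and Rpl10l, whose reads may be split with near-identical copies. Heat shock genes had 3 of 20 higher and 2 lower, 1 and 1 without Tet1KO A or C. Hsph1, a large heat shock protein, stood at 411/361/408 CPM in Tet1KO, 536/517/545 CPM in 49 and 565/476/583 CPM in 81. In the interferon list 2 of 21 were higher and 2 lower, with B2m, the light chain of MHC class I, at 20.6/17.5/18.3, 13/14.5/14.1 and 10.4/11.4/13 CPM. Polycomb genes had 4 of 28 in each direction, 2 higher without Tet1KO A and 2 lower without Tet1KO B. Off chromosomes 6, 8 and 11, 2 of 16 were called in each direction. Ezh2, the H3K27 methyltransferase, stood at 175/154/158, 133/127/127 and 124/124/128 CPM, and Phf19, a Polycomb-like protein, at 2.48/2.3/2.68, 4.05/5.88/6.04 and 4.42/5/4.9 CPM. Among these chromatin genes the catalytic subunit thus fell while an accessory subunit rose. Ezh2 lies on chromosome 6, where 165 of 724 tested genes were called lower. Aebp2, a further called Polycomb member on that chromosome, was higher (0.27 ± 0.05, adjusted p 0.00132). The part of the chromosome in these differences was not tested.

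Of the larger families, 32.8% of collagens, laminins and integrins were called, 22.8% of solute carriers and 12% of numbered Zfp genes, shares that were not tested against each other. Collagens, laminins and integrins had 16 of 64 higher and 5 lower (median 0.11), with 9 higher without Tet1KO A. Lama3, a laminin of epithelial basement membrane, stood at 28.7/27.6/25.4 CPM in Tet1KO, 42.9/44.4/38.2 CPM in 49 and 44/42.5/39 CPM in 81. Itgb1, the widely shared integrin beta subunit, stood at 156/130/156, 107/108/109 and 101/94.6/104 CPM. These members separate the genotypes in opposite directions. Ion channels had 12 of 83 higher and 5 lower, or 7 and 3 without Tet1KO A, with 3 lower also without Tet1KO C. Cacna1g, a T-type calcium channel, stood at 3.84/3.06/3.32, 7.25/10.9/9.46 and 10.8/12.5/11.4 CPM (1.60 ± 0.13, adjusted p 2.65e-07). Ephrins, semaphorins and their receptors had 6 of 45 higher and 5 lower, 2 higher without Tet1KO A, 2 lower without Tet1KO B and 3 lower without 81 A. Cadherins and protocadherins had 5 of 46 higher and 2 lower, and the higher count was 8 without 49 A. Pcdhga12 rose (1.29 ± 0.19, adjusted p 0.000136), in a cluster whose genes share exons, so that the split of reads is uncertain. Serpins had 4 of 17 lower, Serpinb6a, Serpinb6c, Serpina3m and Serping1, and Serpinb1b higher, with 0 higher without Tet1KO A and 2 without 81 C. Solute carriers had 31 of 276 higher and 32 lower (20 and 21 without Tet1KO A), and numbered Zfp genes 22 of 349 higher and 20 lower (10 and 9 without Tet1KO A, 13 lower without Tet1KO C or 49 B).

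Among the 8 called genes with the highest mean CPM, which is not scaled by gene length, every change was under 1.5-fold. Hsp90aa1, a cytosolic chaperone, stood at 4590/3950/4190 CPM in Tet1KO, 4110/3560/3250 CPM in 49 and 3700/3310/3530 CPM in 81, with overlap. Tmsb10, an actin-binding thymosin, stood at 859/772/803, 753/668/638 and 647/671/681 CPM. Tmsb10 does not overlap between genotypes. Trh, a hormone precursor gene, was called higher (0.26 ± 0.09, adjusted p 0.0493), and Scd2, Serbp1 and Hspa9 were called lower (-0.38 ± 0.11, -0.22 ± 0.07 and -0.15 ± 0.05). Of the 9 fits without 1 library, Hspa9 kept its call in 3, Serbp1 and Trh in 4, and Scd2 in 6. Hsp90aa1 kept its call in 8 and lost it without Tet1KO A.

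DKO served to ask which of the genes named here also set N1300T apart from cells whose label says that Tet2 was knocked out. The comparisons share the N1300T libraries, and 3.73% of all tested genes were called in N1300T against DKO. Tet2 itself stood at 93.7/92/97.9 CPM in DKO, below all 6 N1300T libraries, with a log2 difference of 0.55 ± 0.07, adjusted p 0.000472. Zdbf2 stood at 227/222/240 CPM in DKO and N1300T minus DKO gave a log2 difference of -1.16 ± 0.06, adjusted p 7.55e-10. Plagl1 stood at 137/141/143 CPM in DKO (-1.35 ± 0.09, adjusted p 4.32e-08) and Peg10 at 124/127/127 CPM (-0.97 ± 0.14, adjusted p 0.0011). These 3 imprinted genes were thus lower in N1300T than in either other genotype. Igf2 was lower than in DKO too (-0.94 ± 0.16, adjusted p 0.00437). Phlda2 was not called between N1300T and DKO (-0.11 ± 0.09, adjusted p 0.567), with 12.1/13.7/11.4 CPM in DKO. Slc15a2 stood at 3.59/3.26/4.24 CPM in DKO (-2.67 ± 0.22, adjusted p 8.49e-07) and Sh3bgrl at 3.56/3.26/3.67 CPM (-2.66 ± 0.27, adjusted p 1.13e-05), both close to their Tet1KO levels. As3mt, Hydin and Zfp560 stood between, at 2.6/2.51/2.74, 4.73/3.97/3.89 and 0.567/0.56/0.526 CPM in DKO, above N1300T and below Tet1KO. Foxd3, Dkk3 and Trh were higher in N1300T than in DKO, by 0.40 ± 0.08, adjusted p 0.0089 for Foxd3. Meioc was highest in DKO, at 25.2/23.1/25.3 CPM (-0.47 ± 0.08, adjusted p 0.00502). By contrast Lef1 stood at 50.7/51.3/54.5 CPM in DKO, Tbx15 at 2.85/2.58/2.67 CPM, Ildr1 at 12.2/11.7/11.9 CPM and Cdkn2a at 15.8/18.9/14.1 CPM, and none of these was called between N1300T and DKO, which does not show that they are equal. For Lef1 the difference was -0.11 ± 0.09, and for Ildr1 -0.10 ± 0.08.

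**Figure D5:**
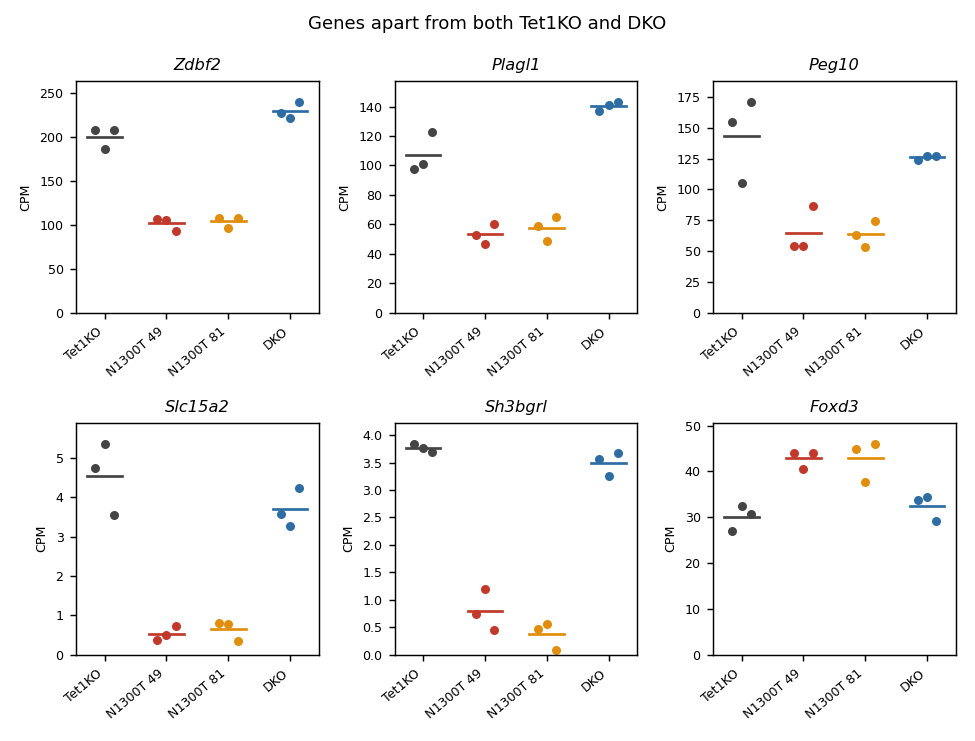
CPM by library (points A, B and C from left to right) and group mean (bars) of 6 genes for which N1300T was called against both Tet1KO and DKO, on linear axes from 0. Zdbf2, Plagl1, Peg10, Slc15a2 and Sh3bgrl are lower and Foxd3 is higher in both N1300T preparations than in Tet1KO and DKO.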

How the data were processed

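Paired-end reads were made from total RNA of 12 mouse ES cell libraries, per the labels' protocols. The authors deposited 1 table of raw read counts per gene. The genome build mm10 and the tool DESeq2 are named in the submitters' processing notes. The aligner, counter, annotation and strand setting are not given in the sources used. Even counts outnumbered odd ones (20282 values of 2 against 5990 of 1), so both mates of a fragment may have been counted, and precision from counts is then overstated.

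All 12 libraries (31515011 to 57054862 counts, 1.74% to 2.64% mitochondrial) were fitted together in R 4.3.3 with edgeR 4.0.16 (limma 3.58.1): TMM factors, filterByExpr by group, the quasi-likelihood test (2-sided, 8 residual degrees of freedom) and Benjamini-Hochberg adjustment over 16014 genes. These steps were tested on simulated data. Chromosomes came from RefSeq (GRCm38.p6) for 97.4% of genes.

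The gene groups and lists were chosen with earlier results of these data known. Named genes were Tet1, Tet2, Tet3, Tdg and Smug1, the 12 largest rises and falls (called, no overlap, a mean of 1 CPM or more in the higher group, no predicted name), the 8 called genes of highest CPM, the next 8 by adjusted p, up to 3 called members per list by adjusted p, and genes called in opposite directions in the preparations; some are not reported here. Alternatives were other scalings and filters, DESeq2 1.42.0, 9 libraries, a replicate block, single preparations, each library left out, halved counts and a fold threshold.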

Additional observations from a re-analysis of the deposited data

Results flagged for a closer look

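In 4 of the 131 genes named above, 1 of the 6 N1300T libraries stood far from the other 5 by Dixon's criterion, which flags about 1 in 20 groups by chance. They were Tdg in 81 B (38.0 CPM), Tmsb10 in 49 A (753 CPM), Dnmt1 in 49 A (420 CPM) and Hoxd4 in 49 C (0.0633 CPM).

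In 8 of these genes the effect against Tet1KO differed between the preparations, by edgeR's test of N1300T 49 against N1300T 81 (Benjamini-Hochberg adjusted p under 0.05). The log2 fold change of 49 exceeded that of 81 by 9.73 for Ddx3y, 9.36 for Uty, 5.91 for Fmr1nb, 2.5 for Uba1y, 2.25 for Eif2s3y, 1.35 for Gata4 and 0.96 for Grb10, and for Gm32885 the difference was -2.97. The values for Ddx3y and Uty rest on 8 and 6 counts in 81 and depend on the prior count of the fit.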

How the results depend on the processing

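Called genes numbered 2520 and stayed within 1.5 times that with RLE factors (2525), library size alone (2502), no filter (3009), a stricter filter (2416), DESeq2 (2844), the 9 libraries alone (1930), halved counts (2450) and single preparations (1739 for 49, 1951 for 81). With a fold of 1.5 tested by glmTreat 234 were called, 98 higher and 136 lower, by construction of a stricter question. Without 1 library the count ranged from 1388 (676 higher and 712 lower, without Tet1KO A) to 2575, with 676 to 1251 higher and 712 to 1334 lower; the cause was not tested. The sign of a named gene's log2 fold change reversed for Uty (0.03) and Fmr1nb (0.51) in 49 alone, and for Grb10 (-0.40), Gm32885 (0.43) and Nanog (0.01) in 81 alone. Over the fits without 1 library, Tet1 ranged from -0.02 (without Tet1KO B) to 0.18, Smug1 from -0.04 to 0.00 (without Tet1KO C), Grb10 from -0.00 (without Tet1KO B) to 0.23 and Nanog from -0.05 to 0.02 (without Tet1KO A), and each changed sign.

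With the letter as a replicate block 3323 genes were called, 1664 of them higher. Tet2 (-0.21), Sox2 (0.16) and Dnmt3b (0.20) then gained a call, no named gene lost one, and 25 of 100 list counts moved by over 1.5 times. Deviations of libraries of the same letter correlated at 0.0662 to 0.312, not all over 0.1 (Tet1KO with 81 alone 0.132 to 0.312), and those of different letters at -0.254 to 0.0445. Every library thus correlated best with its own letter, a hint from the data and not the design, and the letters were not treated as pairs.

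Genes under about 1 CPM rest on few counts, and their fold changes depend on the prior count of the fit.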
